A study of Mus musculus with 4 samples.

Results

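The clustered histone genes are the copies of the H1, H2A, H2B, H3 and H4 genes that lie together in a few chromosomal clusters. They were taken as all symbols starting Hist1h, Hist2h, Hist3h or Hist4h with at least 20 UMIs (unique molecular identifiers, each counting 1 captured RNA molecule) summed over the 4 libraries. This gave 61 of the 67 such symbols among the 32285 genes listed: 5 H1, 16 H2A, 16 H2B, 12 H3 and 12 H4 genes. The Hist1 cluster on chromosome 13 held 49 of them, Hist2 on chromosome 3 held 9, Hist3 on chromosome 11 held 2 and Hist4 on chromosome 6 held 1. The lowest members by total count were Hist1h2ao with 29 UMIs and Hist1h2ah with 31, and the 6 symbols left out had 0 to 3 UMIs.

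Single-cell RNA was measured in cerebellar cells of mouse embryos at E14.5, sorted for the red fluorescent reporter tdT. Every library carried Atoh1-Cre/+ and R26LSL-tdT/+, so the reporter marks cells that expressed Cre under Atoh1, a gene of the rhombic lip lineages that give granule cells and excitatory cerebellar nuclei neurons. The 2 control libraries had no further allele. The 2 CKO libraries were in addition En1lox/lox and En2lox/lox, which removes the transcription factor genes En1 and En2 where Cre is active. Animals were pooled before sorting, so each library is 1 pool. P-values between genotypes set a difference against the spread between pools. Those between cell classes keep the library as a block, and set a difference against the spread of class differences over the 4 pools. The test of whether the CKO effect differs between classes also keeps the library as a block.

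Most clustered histone genes are replication-dependent. Their mRNAs are made in bulk when DNA is copied, end in a short stem-loop that is bound by the stem-loop binding protein Slbp in place of a poly(A) tail, and are degraded when replication stops. H2A with H2B and H3 with H4 form the core of the nucleosome, and H1 binds the linker DNA between nucleosomes. Differentiating cells can keep some of these genes on as polyadenylated transcripts, and otherwise use replacement histone genes outside the clusters. The libraries are 3′ droplet libraries primed on A-rich RNA, so the values count histone RNA that this priming reached and not the total.

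The stem-loop is the sequence these genes share at their ends, and one of its variants sets the H4 genes apart. It was found in the annotated transcripts of 36 of the 61 members. Of the other 25, 11 had no 3′ untranslated region annotated, and no match says nothing of the RNA made. The form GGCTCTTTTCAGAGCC stood in 25 members of the H1, H2A, H2B and H3 families, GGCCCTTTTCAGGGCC in 6 members, all H4, and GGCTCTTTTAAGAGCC in 5 members of the H2B and H3 families. The windows below show 1 or 2 of the members described for each family (GRCm38, GENCODE M21, written 5′ to 3′ on the gene's strand, stem-loop in capitals).
Hist1h1e, chr13:23621775-23621804, minus strand: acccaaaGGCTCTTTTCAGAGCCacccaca
Hist1h2ap, chr13:21833026-21833051, minus strand: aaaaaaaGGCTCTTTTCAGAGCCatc
Hist3h2a, chr11:58955165-58955194, plus strand: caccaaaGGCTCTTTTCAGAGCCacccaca
Hist3h2ba, chr11:58949342-58949371, plus strand: acccaaaGGCTCTTTTCAGAGCCaccttcc
Hist1h3c, chr13:23745040-23745069, minus strand: aaaaaaaGGCTCTTTTAAGAGCCacctaag
Hist1h4d, chr13:23581943-23581972, plus strand: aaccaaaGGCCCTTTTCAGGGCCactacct
The annotated Hist1h2ap transcript stopped 3 bases past its stem-loop, as a replication-dependent mRNA does. That of Hist3h2ba ran on for 169 bases and that of Hist3h2a for 1643 bases. A poly(A) signal (AATAAA or ATTAAA in the last 50 bases) stood at a transcript end of both Hist3 genes, of 15 members in all, and 9 members had both a stem-loop and such a signal.

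Promoters (250 bases before to 50 after the start, RefSeq, GRCm38.p6) were in the table for 55 members. They were searched on both strands for the octamer ATTTGCAT, the CCAAT box, TATAAA and the E2F-type site TTTCCCGC. The octamer stood in 6 of 15 H2A and 5 of 14 H2B promoters and in none of 5 H1, 10 H3 and 11 H4 promoters, against 1.74% of all 32851 promoters in the table. CCAAT stood in 47 of 55, including all H1, H2A, H2B and H3 promoters but 3 of 11 H4 promoters, against 37.4% of all. TATAAA stood in 32 of 55, against 13.6% of all, and TTTCCCGC in 1 of 55, against 1.07%. The promoters of the Hist3 pair, of the most abundant H1 gene and of Hist2h2ac are shown because the results below turn on these genes (octamer, CCAAT and TATAAA in capitals on either strand).
Hist3h2ba, chr11:58948661-58948960, plus strand: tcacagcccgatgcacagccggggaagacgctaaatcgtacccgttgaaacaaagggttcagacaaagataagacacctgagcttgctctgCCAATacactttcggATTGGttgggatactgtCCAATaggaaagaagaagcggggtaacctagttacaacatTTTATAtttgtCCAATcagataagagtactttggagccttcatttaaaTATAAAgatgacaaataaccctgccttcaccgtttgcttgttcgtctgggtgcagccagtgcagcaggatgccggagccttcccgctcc
Hist3h2a, chr11:58954435-58954734, plus strand: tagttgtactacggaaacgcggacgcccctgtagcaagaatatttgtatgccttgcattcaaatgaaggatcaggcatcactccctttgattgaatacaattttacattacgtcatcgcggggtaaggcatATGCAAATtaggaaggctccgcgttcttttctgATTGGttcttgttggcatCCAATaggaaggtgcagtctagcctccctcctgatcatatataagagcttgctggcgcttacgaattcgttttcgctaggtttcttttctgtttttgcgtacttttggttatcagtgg
Hist1h1b, chr13:21780576-21780875, minus strand: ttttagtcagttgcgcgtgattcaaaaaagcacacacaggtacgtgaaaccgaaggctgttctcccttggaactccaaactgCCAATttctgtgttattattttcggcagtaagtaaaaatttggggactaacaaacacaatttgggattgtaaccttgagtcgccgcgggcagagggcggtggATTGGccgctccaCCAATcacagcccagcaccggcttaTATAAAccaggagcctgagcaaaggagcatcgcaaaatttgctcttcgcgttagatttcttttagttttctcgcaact
Hist2h2ac, chr3:96220831-96221130, minus strand: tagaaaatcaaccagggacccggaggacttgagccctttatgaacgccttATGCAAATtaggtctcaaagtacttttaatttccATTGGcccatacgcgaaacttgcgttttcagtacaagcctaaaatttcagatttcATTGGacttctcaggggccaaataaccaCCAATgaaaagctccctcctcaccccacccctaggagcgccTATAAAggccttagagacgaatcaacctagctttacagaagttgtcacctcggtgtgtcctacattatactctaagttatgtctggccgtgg
Hist3h2a held the octamer and CCAAT but no TATAAA. Hist3h2ba and Hist1h1b held CCAAT and TATAAA but no octamer, and Hist2h2ac held all 3. A match is a description of these letters and not a shown binding site.

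The libraries held 14998150 to 33709450 UMIs. A cell was kept with 500 or more genes detected, 1000 or more UMIs and no more than 10% of them mitochondrial. This left 2911 and 3931 cells for control 1 and control 2, and 2007 and 3697 for CKO 1 and CKO 2. Their median depth was 2734 and 2122 UMIs for the controls but 5352 and 5544 UMIs for CKO 1 and CKO 2, so depth and genotype cannot be told apart. Control 2 stood apart, with 884 haemoglobin CPM (UMIs of a gene per 1000000 of the library or class) against 3.01 to 38.1 in the other libraries, and pairs of libraries shared 1 to 6 barcodes. En2 was at 137 and 168 CPM in control and 29.0 and 19.8 CPM in CKO cells, and En1 at 238 and 383 CPM against 151 and 253 CPM. The groups overlapped for En1, where CKO 2 was above control 1, and did not for En2. In the neurons with Meis2 above Pax6 defined below, En1 was at 567 and 472 CPM in control and 408 and 840 CPM in CKO libraries. En2 was there at 263 and 192 CPM against 57.6 and 35.6 CPM. Whether the counted 3′ ends lie in the floxed parts is not given in the sources used here.

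Each kept cell was thinned to 1000 UMIs and scored by its UMIs from 52 S-phase genes and 39 mitotic genes, none of them a clustered histone gene. S-phase-like cells had at least 4 S-phase UMIs and more S-phase than mitotic ones, mitotic-like cells the reverse, and non-cycling cells at most 1 S-phase and 0 mitotic UMIs. These classes are ranges of a score and not cell types, and 769 to 1944 cells a library fell in none of them. Neurons were non-cycling cells with at least 6 UMIs from 20 neuronal genes, split by whether Meis2, a factor of cerebellar nuclei neurons, or Pax6, a factor of the granule lineage, had more UMIs. The libraries gave 217 to 571 S-phase-like, 240 to 579 mitotic-like and 686 to 1510 non-cycling cells, and 136 to 988 neurons with Meis2 above Pax6. Those neurons held Meis2 at 1334 to 1918 CPM and Pax6 at 99.2 to 180.4 CPM. Levels are CPM of all UMIs summed over a library's cells of a class, on a scale that counts RNA ends and does not depend on gene length.

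Clustered histone RNA was more abundant in S-phase-like and mitotic-like cells than in non-cycling cells in every library. The 61 members summed to 2833, 1735, 3841 and 4117 CPM in S-phase-like cells of control 1, control 2, CKO 1 and CKO 2. In mitotic-like cells they summed to 3242, 2698, 3248 and 4781 CPM, and in non-cycling cells to 623, 816, 728 and 518 CPM. The ranges of the cycling and non-cycling classes did not overlap, and control 2 was the lowest library in both cycling classes. Linker H1 genes gave the largest family sum in S-phase-like cells (1367 ± 573 CPM, SD, n = 4 libraries), followed by H2A without Hist3h2a (998 ± 433), H4 (248 ± 59.7), H3 (192 ± 72.2) and H2B without Hist3h2ba (154 ± 45.3). This is an order of the RNA that priming on A-rich RNA reached, and need not be the order of total RNA. Hist1h1b and Hist1h2ap alone made up 31.4% to 51.0% of the members' UMIs there.

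Between S-phase-like and non-cycling cells, 49 of the 52 members that passed the low-count filter rose and 2 fell, by edgeR's quasi-likelihood test with Benjamini-Hochberg adjustment. Among the 12286 genes tested, 52.7% were called, 25.1% upward and 27.6% downward. The members' median log2 fold change was 3.48, against -0.04 over all genes tested. With no low-count filter all 61 entered, and 56 were higher and 2 lower, where 14.1% and 17.3% of genes were called. Hist1h2bc, an H2B gene, did not pass (log2 fold change 0.08 ± 0.29 SE, adjusted p = 0.847 by edgeR), and the unfiltered fit also left out Hist2h3c1 and Hist2h3c2. The 9 members that did not pass the filter were Hist1h2ah, Hist1h2ao, Hist1h3h, Hist1h4b, Hist1h4f, Hist1h4k, Hist1h4n, Hist2h3c1 and Hist2h3c2.

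**Figure D1:**
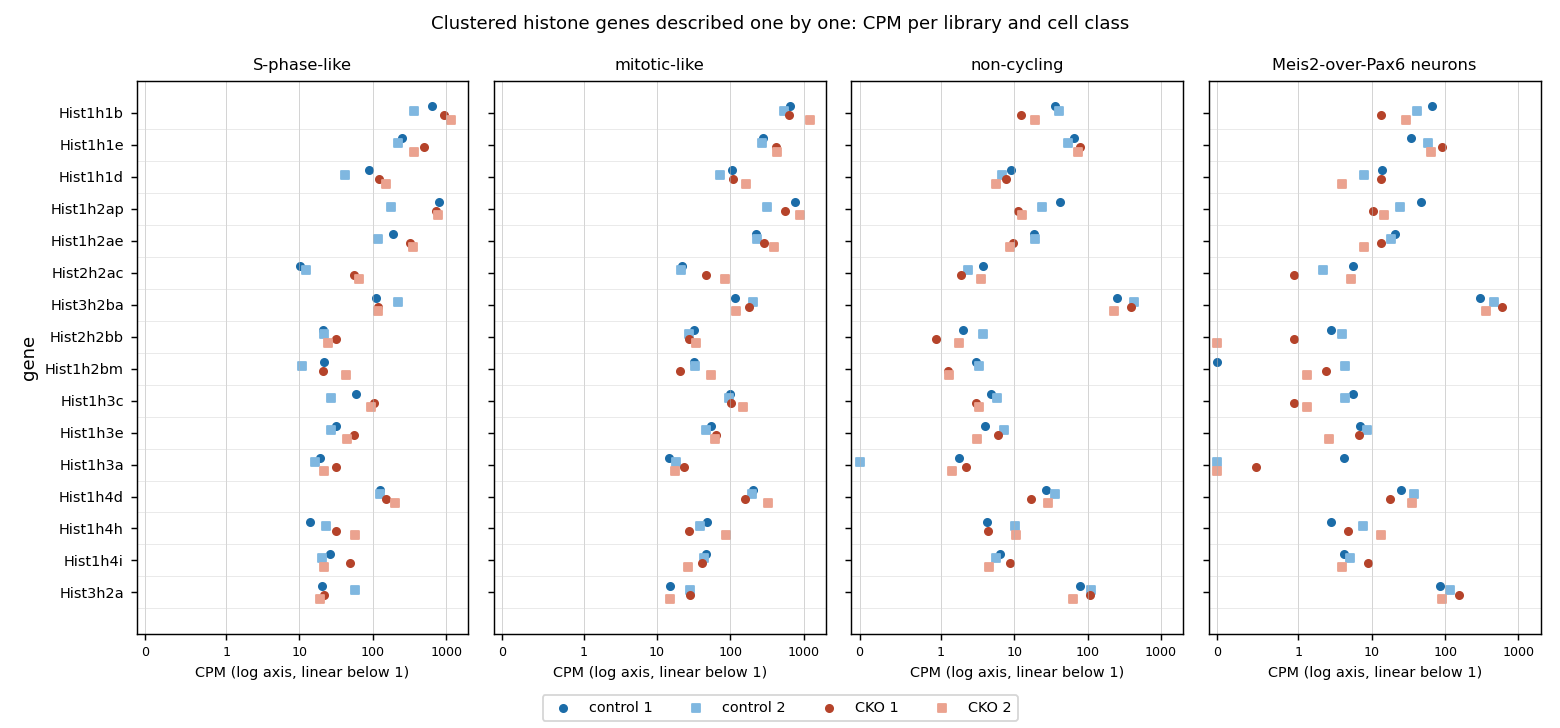
CPM (log axis, linear below 1) of the 16 genes described one by one, in 4 cell classes, with 1 point for each of the 4 libraries. Most genes lie between 10 and 1169 CPM in S-phase-like cells and lower in neurons, whereas Hist3h2ba and Hist3h2a lie higher in neurons in each library.

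All 5 linker H1 genes rose in S-phase-like cells. Hist1h1b, the most abundant member there, was at 649.9, 366, 933 and 1169 CPM in control 1, control 2, CKO 1 and CKO 2, and at 36.3, 40.3, 12.3 and 19.2 CPM in non-cycling cells. S-phase-like cells were 9.09-fold to 75.8-fold above non-cycling cells of the same library (log2 fold change 4.91 ± 0.34 SE, adjusted p = 1.39e-09 by edgeR). Hist1h1e was at 251, 222, 503 and 368 CPM in S-phase-like cells and kept 65.6, 53.6, 78.1 and 74.5 CPM in non-cycling cells. It is thus the H1 gene with the highest level outside the cycle, and its change was smaller (log2 fold change 2.30 ± 0.11 SE). Its annotated 3′ end lies over the start of the longer Hist1h2be gene on the same strand, and every 60-base window in its last 300 bases is shared with that gene, so counts of the pair are uncertain. Hist1h1d rose from 5.65 to 9.08 CPM in non-cycling cells to 41.8 to 153 CPM in S-phase-like cells (log2 fold change 3.94 ± 0.20 SE).

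Among H2A genes, which pair with H2B in the nucleosome, 13 of 14 tested rose and Hist3h2a fell. Hist1h2ap was at 795, 178, 719 and 784 CPM in S-phase-like cells and at 42.1, 23.5, 11.1 and 12.6 CPM in non-cycling cells. Control 2 was far below the other libraries in the S-phase-like class, and the log2 fold change was 4.90 ± 0.33 SE (adjusted p = 9.32e-10 by edgeR). All windows in the end of Hist1h2ap are shared with other H2A genes, so its counts may stand for several copies. Hist1h2ae was at 189, 117, 326 and 350.2 CPM in S-phase-like cells and 18.7, 18.9, 9.51 and 8.71 CPM in non-cycling cells.

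H2B genes were low apart from Hist3h2ba, and 14 of 16 tested rose. Hist2h2bb was at 21.1, 21.6, 31.0 and 24.4 CPM in S-phase-like cells and at 2.02, 3.73, 0.935 and 1.76 CPM in non-cycling cells. Hist1h2bm was at 21.5, 10.8, 20.8 and 43.2 CPM and at 3.03, 3.26, 1.25 and 1.29 CPM. The classes did not overlap for either gene.

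All 9 H3 and all 8 H4 genes tested rose. Hist1h3c, the highest H3 gene, was at 59.2, 26.9, 105 and 95.6 CPM in S-phase-like cells and at 4.79, 5.82, 2.96 and 3.29 CPM in non-cycling cells (log2 fold change 4.33 ± 0.26 SE). Hist1h3e reached 26.9 to 54.8 CPM and Hist1h3a 16.2 to 31.8 CPM in S-phase-like cells, and both were at most 7.22 CPM in non-cycling cells. Hist1h4d, the highest H4 gene, was at 127, 127, 153 and 199 CPM in S-phase-like cells and kept 26.7, 35.6, 17.0 and 28.6 CPM in non-cycling cells (log2 fold change 2.58 ± 0.17 SE). H4 genes changed least as a family, with a median log2 fold change of 2.42, against 3.48 to 3.94 in the other 4 families. Hist4h4, the single gene of its cluster, had the smallest called rise (1.13 ± 0.35 SE, adjusted p = 0.0114 by edgeR), and Hist1h3b the largest (5.27).

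The mitotic-like class gave a like picture against non-cycling cells. Of 52 members tested, 50 rose and 2 fell, where 57.7% of genes were called, 27.7% upward and 30.0% downward, and the members' median log2 fold change was 3.86. With no low-count filter 57 of 61 rose and 2 fell, where 15.9% and 19.1% of genes did. The 2 that fell were again Hist3h2a (log2 fold change -1.96 ± 0.13 SE) and Hist3h2ba (-0.98 ± 0.10 SE).

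Set against each other, the cycling classes differed for a number of members that depended on the gates. In S-phase-like against mitotic-like cells, 10 of 52 members were lower and 0 higher by edgeR, where 19.1% of genes were called, 9.86% downward and 9.25% upward. The 10 were Hist1h2af, Hist1h2ag, Hist1h2bf, Hist1h2bh, Hist1h3c, Hist1h3d, Hist1h3e, Hist1h3g, Hist1h4d and Hist1h4h, and no H1 gene was among them. Hist1h2ag had 12.6, 6.74, 13.5 and 10.0 CPM in S-phase-like and 28.1, 23.9, 23.8 and 17.6 CPM in mitotic-like cells (log2 fold change -1.03 ± 0.17 SE). Fewer were called with DESeq2 (3 lower, where 7.24% of genes were lower), without CKO 2 (4 lower), without control 1 (2 lower) and with gates of 6 UMIs (2 lower and 2 higher). For the fits without a library and with gates of 6 UMIs, the share of all genes called is not given. More were called with gates of 3 UMIs (27 lower and 1 higher of 51, where 24.3% of genes were called in either direction), with another thinning seed (20 lower of 52, where 21.1% were) and with no low-count filter (21 lower and 1 higher of 61, where 12.3% were).

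Within the cycle, clustered histone RNA was highest in cells with UMIs of both gate lists, and cells high in 1 list alone lay between these and the cells low in both. The S-phase-like class was mixed, since 39.7% to 54.4% of its cells also had 2 or more mitotic-gate UMIs, which include Top2a, Mki67, Cdk1 and Ccna2. The mitotic-like class was mixed as well, with a median of 2 or 3 S-phase UMIs. At most 1 S-phase UMI was found in 63 of 322, 73 of 240, 66 of 332 and 120 of 579 mitotic-like cells. The 59 members outside Hist3 summed to 327, 358, 264 and 315 CPM in cells with 4 or 5 S-phase UMIs and at most 1 mitotic UMI. In cells with the same S-phase score and 2 or more mitotic UMIs they summed to 3652, 2125, 4002 and 4938 CPM. The first values lie close to the 285, 281, 237 and 235 CPM of cells with 0 S-phase and at most 1 mitotic UMI. Cells with 6 to 8 S-phase and at most 1 mitotic UMI had 363, 407, 449 and 624 CPM. Those with 9 or more S-phase and at most 1 mitotic UMI had 1291, 1979 and 2178 CPM in control 1, CKO 1 and CKO 2, while control 2 had 14 such cells and is not given. Cells with 9 or more S-phase and 2 or more mitotic UMIs reached 6017, 4087, 5840 and 9463 CPM. The mitotic list alone also went with higher sums, since cells with 9 or more mitotic and at most 1 S-phase UMI had 2421, 2065, 1599 and 2239 CPM. With 9 or more mitotic and 2 or more S-phase UMIs the sums were 3916, 3289, 3696 and 6241 CPM. These are sums within score bins and were not tested.

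**Figure D2:**
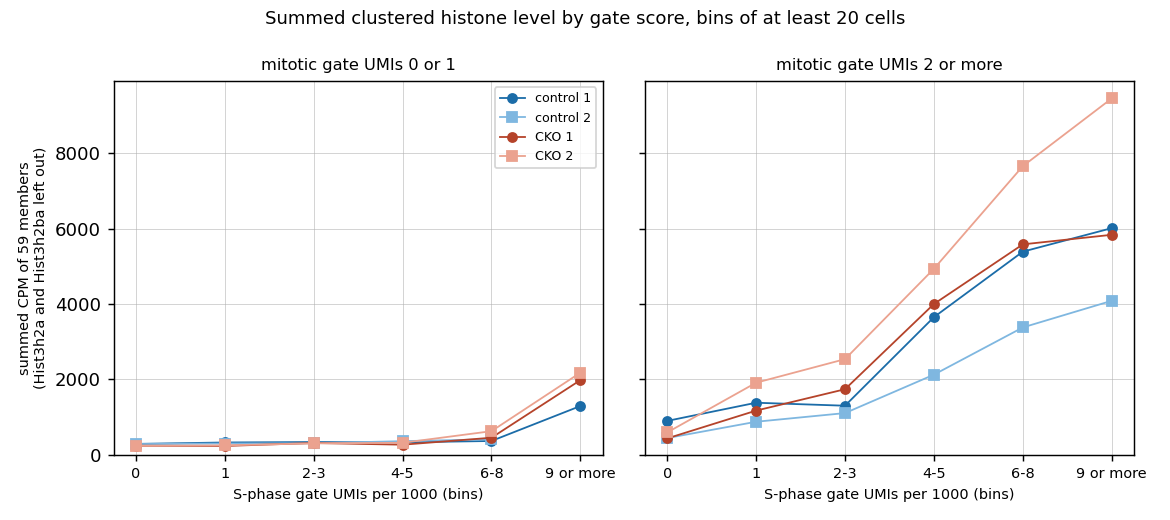
Summed CPM of the 59 members outside Hist3 (vertical axis) by the number of S-phase gate UMIs per 1000, for cells with at most 1 (left) and 2 or more (right) mitotic gate UMIs, with 1 line per library. On the left, values at 4 or 5 S-phase UMIs are 264 to 358 CPM, and on the right they climb to between 4087 and 9463 CPM.

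When S-phase-like cells were restricted to at most 1 mitotic UMI and mitotic-like cells to at most 1 S-phase UMI, 18 of 25 members tested in S-phase-like cells rose against non-cycling cells and 2 fell, where 19.5% of genes were called upward and 19.6% downward. Hist1h1b then had a log2 fold change of 2.62. With this restriction 18 of 25 members were lower in S-phase-like than in mitotic-like cells and 0 higher, where 7.94% and 5.69% of genes were. The restricted classes held 99 to 318 S-phase-like and 63 to 120 mitotic-like cells a library. Members low in non-cycling cells could pass the low-count filter only through a cycling class, so the 25 are not the whole set. No fit without the filter was run with these gates.

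In single S-phase-like cells the RNA of one gene was concentrated in few cells. Cells with 10 or more Hist1h1b UMIs were 8.65%, 3.13%, 24.9% and 21.4% of the class in control 1, control 2, CKO 1 and CKO 2, and held 83.8%, 61.8%, 91.4% and 94.9% of the gene's UMIs. The largest count in 1 cell was 112, 43, 119 and 145 UMIs. In neurons with Meis2 above Pax6 no cell passed 3 UMIs. At 1000 UMIs a cell, 23.2%, 11.2%, 33.2% and 26.3% of S-phase-like cells had a Hist1h1b UMI, against 7.14%, 4.76%, 2.51% and 3.68% of these neurons. Unthinned, the shares were 25.0% to 55.8% and 9.32% to 20.9%, at median depths of 2124.5 to 11022 and 2379.5 to 3720 UMIs. These neurons were gated as non-cycling, and their share is given for comparison with the S-phase-like share. Whether they make this RNA themselves was not tested. Empty droplets were not analysed here, and the part of free RNA in the neuronal values of the replication-dependent genes was not tested.

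Neurons with Meis2 above Pax6 held little of this RNA, apart from the Hist3 pair. The 59 members outside Hist3 summed to 300.3, 287, 269.8 and 245 CPM in these neurons, against 2701, 1454, 3699.7 and 3981 CPM in S-phase-like cells of the same libraries. Hist3h2a and Hist3h2ba together went the other way, from 132, 282, 141 and 136 CPM to 382, 577, 759 and 453 CPM. The pair made up 56.0% to 73.8% of the members' UMIs in these neurons and 3.30% to 16.2% in S-phase-like cells. Their neuronal values did not overlap their S-phase-like values.

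Of 33 members that passed the filter between these neurons and S-phase-like cells, 30 fell, 2 rose and 1 did not pass, by edgeR's quasi-likelihood test with Benjamini-Hochberg adjustment. Among all 11614 genes 57.1% were called, 29.6% downward and 27.6% upward. The members' median log2 fold change was -3.05, against -0.01 over all genes. With no filter 51 of 61 were lower and 2 higher, where 18.2% and 15.6% of genes were called. Low members could enter the filtered fit only through the S-phase-like class, so the 33 are not the whole set.

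Hist3h2ba, an H2B gene, was at 297, 459.8, 606 and 362 CPM in neurons with Meis2 above Pax6 and at 112, 224, 119 and 117 CPM in S-phase-like cells. It was 2.06-fold to 5.09-fold higher in the neurons of the same library, in 4 of 4 libraries (log2 fold change 1.57 ± 0.14 SE, adjusted p = 1.42e-08 by edgeR). In mitotic-like cells it was at 118, 207, 179 and 118 CPM and in non-cycling cells at 253, 424, 392 and 225 CPM. The order of the classes by mean was neurons with Meis2 above Pax6, non-cycling cells, neurons with Pax6 above Meis2, mitotic-like and S-phase-like cells. Its annotated gene (ENSMUSG00000056895, chr11:58948920-58949533, plus strand, 1 exon) overlaps no other gene and shares no 60-base window in its end with another transcript.

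Hist3h2a, the H2A gene that follows it on the same strand, followed the same order in part. It was at 84.8, 117, 154 and 90.9 CPM in these neurons, at 77.4, 112, 108 and 62.7 CPM in non-cycling cells and at 20.3, 57.9, 21.9 and 19.4 CPM in S-phase-like cells. Neurons were 2.02-fold to 7.01-fold higher than S-phase-like cells in 4 of 4 libraries (log2 fold change 2.07 ± 0.18 SE, adjusted p = 1.25e-08 by edgeR). Its gene (ENSMUSG00000078851, chr11:58954685-58956830, plus strand, 1 exon) lies within Trim17 on the same strand, but its end shares no window with it.

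These 2 genes were the members with at least 10 CPM in these neurons in all 4 libraries and a neuron to S-phase ratio of at least 0.5 in each. They were singled out by these levels, so the fold changes describe them. The log2 fold change lay between 0.93 and 2.33 for Hist3h2ba and between 1.44 and 2.73 for Hist3h2a over the alternatives tried, and both were called in each. The lowest values came from cells thinned to 1000 UMIs before summing and the highest from deep cells (4000 or more UMIs, no more than 5% mitochondrial). At 1000 UMIs, 15.3%, 31.2%, 30.5% and 16.9% of these neurons had a Hist3h2ba UMI, against 13.7%, 24.1%, 10.6% and 9.81% of S-phase-like cells. The 95% Wilson intervals, which cover counting error only, were separate in the CKO 1 library (25.4% to 36.1% against 7.17% to 15.4%) and overlapped in both controls and in CKO 2 (11.5% to 24.1% against 7.63% to 12.5%). Unthinned, 41.9% to 64.2% of neurons and 41.5% to 61.3% of S-phase-like cells had one, and no class here is known to lack the gene.

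Hist3h2ba RNA in neurons was also unevenly spread in unthinned counts. Cells with 10 or more of its UMIs were 4 of 196, 10 of 988, 49 of 279 and 11 of 136 neurons and held 32.2%, 9.65%, 69.8% and 51.6% of its UMIs. The most in 1 cell was 26, 16, 74 and 17 UMIs. The CKO 1 library thus had the highest level, share and single-cell count before thinning. Its neurons also had the highest median depth, 3720 UMIs against 3000, 2379.5 and 2671.5 in control 1, control 2 and CKO 2. Deep cells, as defined above, were 24, 71, 95 and 45 of these neurons in control 1, control 2, CKO 1 and CKO 2. They held 219526 of 719383, 443959 of 2771062, 1464838 of 2116581 and 545078 of 759222 UMIs of all genes. The part of depth in this spread was not tested.

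Markers of other cells in these neurons are given beside these values. Haemoglobin was at 44.5, 800.1, 21.7 and 6.59 CPM in the neurons and at 31.2, 773, 8.40 and 2.42 CPM in S-phase-like cells, so control 2 was high in both classes. All 6 microglial markers were detected in the neurons, and they summed to 1.39, 112, 1.89 and 0 CPM. Of 8 GABAergic markers 7 were detected, with Ptf1a at 0, and they summed to 66.1 to 127.9 CPM. Of 6 endothelial and mural markers 2 were detected, at 0 to 4.69 CPM in sum. All 6 glial markers were detected and summed to 161, 53.8, 204 and 151 CPM, against 225, 133, 204 and 183 CPM in S-phase-like cells. All 9 granule-lineage markers were detected and summed to 2166, 1979, 2838 and 3679 CPM, against 3069, 2481, 2710 and 3042 CPM in S-phase-like cells. The part of other cells in the Hist3 values was not tested. Without control 2 the log2 fold changes of Hist3h2ba and Hist3h2a were 1.75 and 2.33.

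Other members had neuronal levels nearer to their S-phase-like levels but were low. Hist1h2bc was at 2.78, 5.41, 16.1 and 7.90 CPM in neurons and 4.06, 4.04, 6.21 and 7.60 CPM in S-phase-like cells, and the groups overlapped (log2 fold change 0.50 ± 0.33 SE, adjusted p = 0.212 by edgeR). Hist2h3c1 and Hist2h3c2, both H3 genes, had 12 and 11 UMIs in the neurons of all 4 libraries together, so no order can be read from them. Among the H1 genes, Hist1h1c kept 8.34, 8.66, 29.3 and 26.3 CPM in neurons, a ratio of 0.212 to 0.319 to S-phase-like cells. Hist1h1e kept 34.8, 58.1, 89.3 and 64.5 CPM, a ratio of 0.139 to 0.261. Both fell between the classes (log2 fold changes -1.95 ± 0.22 SE and -2.42 ± 0.16 SE).

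The Hist3 pair, the members called higher in neurons, were among the 28 members with an annotated 3′ untranslated region over 100 bases. The other 33 had at most 100, and 11 of these had no 3′ untranslated region annotated. Hist1h2bc, which did not pass, and Hist2h3c1 and Hist2h3c2, whose UMIs are too few to order, also had mean ratios above 1 and a long annotated end. The median ratio of the neuronal to the S-phase-like mean was 0.189 in the 28 members, 0.0661 in the other 33 and 0.0967 over all 61. Members with a short end are also low in neurons at few UMIs, and the 3′ priming reaches ends of different kinds unequally, so the ratios are given as a description with no test.

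**Figure D3:**
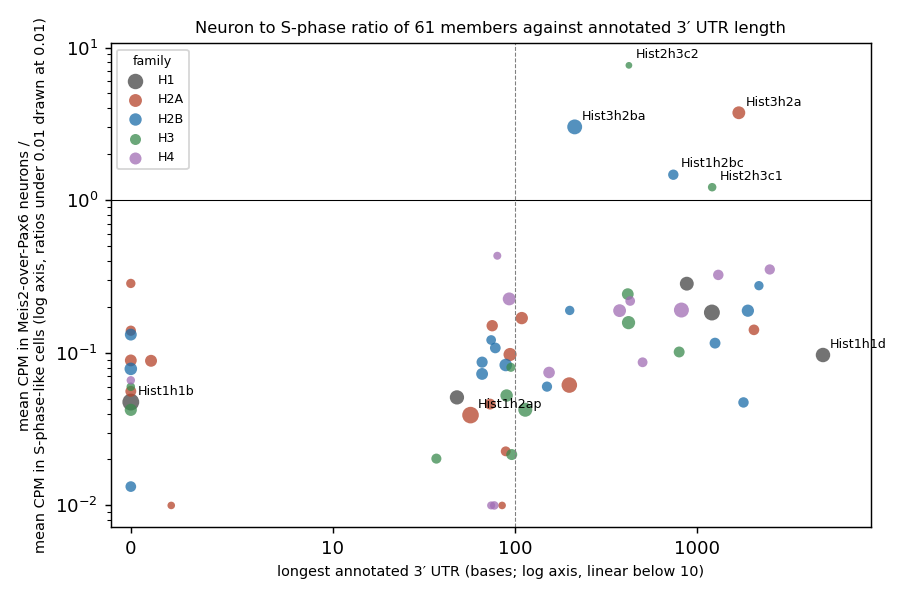
Ratio of mean CPM in neurons with Meis2 above Pax6 to mean CPM in S-phase-like cells (log axis) against the longest annotated 3′ untranslated region in bases (log axis, linear below 10) for the 61 members. Colour marks the family, a larger point a higher S-phase-like level, and the dashed line 100 bases, and the Hist3 pair lies above a ratio of 1 and to its right. The other 3 points above 1 are Hist1h2bc, Hist2h3c1 and Hist2h3c2, which were not called. The 11 members with no 3′ untranslated region annotated are drawn at 0 bases.

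Between the 2 neuron classes the members differed little. Of 33 tested, 3 were higher in neurons with Meis2 above Pax6 than in those with Pax6 above Meis2 and 0 lower, where 33.9% of genes were called, 15.8% upward and 18.1% downward. Hist3h2ba was at 259, 330.4, 296 and 228 CPM in the Pax6 neurons and higher with Meis2 in 4 of 4 libraries (log2 fold change 0.54 ± 0.13 SE, adjusted p = 0.00307 by edgeR). The other two were Hist1h1d (1.20 ± 0.37 SE, adjusted p = 0.0163) and Hist1h2bc (1.00 ± 0.34 SE, adjusted p = 0.0284). No member was called when the library was not kept as a block or when cells were thinned. Without control 1 there were 5 higher and 1 lower, and the share of all genes called in that fit is not given.

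Genes that serve the clustered histones were read from lists. Of 13 tested genes for the transcription and 3′ processing of histone mRNA, 8 rose from non-cycling to S-phase-like cells and 0 fell, where 25.1% and 27.6% of all genes did. In neurons against S-phase-like cells 0 rose and 8 fell, where 27.6% and 29.6% of all genes did. Slbp, which binds the stem-loop, was at 234, 224, 286 and 234 CPM in S-phase-like cells and at 59.8, 56.7, 37.8 and 46.1 CPM in neurons (log2 fold change -2.36 ± 0.16 SE, adjusted p = 4.18e-10 by edgeR). It was one of 5 such genes higher in S-phase-like than in mitotic-like cells, with 0 of the 13 lower, where 9.25% and 9.86% of all genes were. Npat, the coactivator at histone clusters, rose 1.48 and Casp8ap2 1.54 on the log2 scale from non-cycling to S-phase-like cells. The cofactors Lsm10 and Lsm11 of the processing complex did not pass in either comparison (S-phase-like against non-cycling -0.03 and 0.16).

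Of 17 histone chaperones and modifiers of new histones, 15 rose in S-phase-like cells (25.1% of all genes did) and 15 fell in neurons against S-phase-like cells (29.6% of all genes did), with 0 the other way. Asf1b was at 35.7, 26.9, 81.1 and 42.5 CPM in S-phase-like cells and at most 4.17 CPM in neurons. Chaf1a, of the replication-coupled assembly factor, was at 95.6 to 121 CPM and 6.95 to 13.2 CPM, with no overlap.

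Replacement histone genes outside the clusters summed to 5412 to 9386 CPM in neurons with Meis2 above Pax6 and 7865 to 12619 CPM in S-phase-like cells. Single genes differed widely, with Cenpa at 8.98 to 18.0 CPM and H2afx at 51.4 to 88.4 CPM in these neurons. Of 11 tested, 6 rose in S-phase-like against non-cycling cells and 0 fell (their median change was 0.47 on the log2 scale), and 8 fell in neurons against S-phase-like cells and 0 rose. Over all genes 25.1% rose in the first comparison and 29.6% fell in the second. H3f3b, a gene of the replacement H3, was at 2081 to 3777 CPM in neurons and 2291 to 2978 CPM in S-phase-like cells, and the ranges overlapped (log2 fold change 0.02 ± 0.08 SE, adjusted p = 0.865 by edgeR). The H3f3b level was thus above the sum of all 61 clustered members in these neurons in each library. H3f3a, the other replacement H3 gene listed, was at 1679 to 3175 CPM in neurons and 2206 to 3208 CPM in S-phase-like cells. It was called lower in neurons (log2 fold change -0.25 ± 0.08 SE, adjusted p = 0.0121 by edgeR), though the ranges overlapped. H2afz, a replacement H2A, fell by 1.95 on the log2 scale in neurons, to 469.8 to 747 CPM.

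Between genotypes, few members passed the test, and the sign of the difference in the summed level depended on the class. In S-phase-like cells (SD, n = 2 libraries for each mean here) the sum of the 61 members was 2284 ± 777 CPM for control and 3979 ± 196 CPM for CKO, and in mitotic-like cells it was 2970 ± 385 and 4014 ± 1084 CPM. In non-cycling cells it was 719.7 ± 136 and 623 ± 148 CPM, and in neurons with Pax6 above Meis2 655 ± 34.7 and 553 ± 51.2 CPM. In neurons with Meis2 above Pax6 the sums were 773 ± 128 and 864 ± 234 CPM, but outside Hist3 they were 294 ± 9.45 and 257 ± 17.5 CPM. These sums were not tested. Over all kept cells, 0 of 59 members tested passed by edgeR's quasi-likelihood test with Benjamini-Hochberg adjustment, where 0.0% of 14703 genes did, and the lowest adjusted p of a member was 0.42. At an unadjusted p under 0.05 there were 20 members and 1675 genes, and DESeq2 called 5 members, all higher, among 1.05% of genes. The members' median log2 difference was 0.87, against 0.01 over all genes. The number of members called changed when control 1 was left out, a fit that leaves 1 control library. In all kept cells a higher level cannot be told apart from a larger share of cycling cells.

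In S-phase-like cells 1 of 47 members was called, higher, where 0.0268% of genes were called in all, 0.00895% upward and 0.0179% downward. This was Hist2h2ac, an H2A gene on chromosome 3 whose promoter is printed above, at 10.1 and 12.1 CPM in control 1 and 2 and 56.2 and 64.5 CPM in CKO 1 and 2. The groups did not overlap (log2 fold change 2.59 ± 0.29 SE, adjusted p = 0.00173 by edgeR). The call was kept without each library in turn, and was lost in cells of 4000 or more UMIs (2.08, adjusted p = 0.182) and with at most 1 mitotic UMI in the class (2.79, adjusted p = 0.254). With cells thinned to 1000 UMIs before summing, 0 of 11 members tested were called and Hist2h2ac was not among the 11, at 10.2 and 0 CPM against 27.6 and 52.5 CPM. The number of members called higher was 5 with the replicate number as a block and 10 of 61 with no low-count filter. In the unfiltered fit 0.174% of genes were called higher, and the share for the block is not given. The number also changed when single libraries were left out, which leaves 1 library in a group. In mitotic-like cells Hist2h2ac was at 22.0 and 21.6 CPM against 47.3 and 85.1 CPM. It did not pass there (1.68 ± 0.31 SE, adjusted p = 0.343 by edgeR), and with exclusive gates the log2 difference was -0.0013. An antisense gene lies over it, and 6.22% of its end windows are shared with other H2A genes.

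At an unadjusted p under 0.05, 19 of 47 members were reached in S-phase-like cells, and 729 of 11175 genes. DESeq2 called 5 (0.197% of genes): Hist2h2ac, Hist1h1a, Hist1h1b, Hist1h1c and Hist1h2ae. Hist1h1c was at 39.4 and 33.7 CPM in the controls and 100.4 and 82.6 CPM in the CKO libraries (log2 difference 1.40 ± 0.24 SE, adjusted p = 0.0951 by edgeR). The controls were below both CKO libraries for this gene. Median depth of S-phase-like cells was 2911 and 2124.5 UMIs for control and 10172 and 11022 UMIs for CKO libraries, and 39.7% and 42.4% against 54.4% and 44.3% of these cells had 2 or more mitotic UMIs. The part of depth and of the mix of the class in these differences was not tested.

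In mitotic-like cells 0 of 56 members passed by edgeR (0.00831% of genes did, all downward), 9 members and 488 of 12038 genes were at an unadjusted p under 0.05, and DESeq2 called 0 members. In non-cycling cells 0 of 25 passed (0.0% of genes did), 6 members and 1681 of 12503 genes were at an unadjusted p under 0.05, and DESeq2 called 0 members. Among these, Hist1h2ap was at 42.1 and 23.5 CPM against 11.1 and 12.6 CPM (log2 difference -1.33 ± 0.32 SE, adjusted p = 0.33 by edgeR). Hist1h1b was at 36.3 and 40.3 CPM against 12.3 and 19.2 CPM (-1.14 ± 0.28 SE, adjusted p = 0.335).

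In neurons with Meis2 above Pax6 0 of 11 members tested passed by edgeR, where 0.329% of 10032 genes did (0.179% upward and 0.15% downward), while 5 members and 1451 genes were at an unadjusted p under 0.05 and DESeq2 called 0 members. Hist1h1c was at 8.34 and 8.66 CPM in the controls and at 29.3 and 26.3 CPM in the CKO libraries, with no overlap (log2 difference 1.74 ± 0.37 SE, adjusted p = 0.0672). Hist1h1b was at 65.3 and 40.8 CPM against 13.2 and 29.0 CPM (-1.37 ± 0.38 SE, adjusted p = 0.146). The Hist3 pair overlapped between genotypes (Hist3h2ba 0.39 ± 0.31 SE, adjusted p = 0.616, and Hist3h2a 0.32 ± 0.29 SE, adjusted p = 0.67). The granule-lineage markers of these neurons summed to 2166 and 1979 CPM in the controls and 2838 and 3679 CPM in the CKO libraries. Among them Barhl1 was at 214 and 113 CPM against 334 and 395 CPM and Atoh1 at 93.1 and 33.2 CPM against 202 and 112 CPM. Pax6, which the class definition limits, was at 110 and 122 CPM against 99.2 and 180 CPM, and the groups overlapped. The other markers of the list are given only in the sum. The part of the granule-lineage markers in these differences was not tested. With the replicate number as a block 1 member was higher and 2 lower, and the share of all genes called in that fit is not given. The calls also changed when single libraries were left out, which leaves 1 library in a group.

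The CKO effect in these neurons differed from that in S-phase-like cells for 5 of 44 members, by edgeR's test of the interaction with Benjamini-Hochberg adjustment. All 5 (Hist1h1a, Hist1h1b, Hist1h2ae, Hist1h2ap and Hist1h3c) had the lower effect in the neurons. Their mean levels over the 4 libraries were 4.44, 37.1, 15.1, 24.2 and 3.04 CPM in these neurons. In S-phase-like cells the means were 87.0, 779.6, 245.7, 618.9 and 71.7 CPM. Members low in the neurons could enter this fit through the S-phase-like class, so the 44 are not the whole set. Among 11780 genes 0.654% were called, 0.475% upward and 0.178% downward. Hist1h1b had a log2 difference of effects of -2.61 ± 0.30 SE (adjusted p = 1.38e-06). The median depth of S-phase-like cells was 2911 and 2124.5 UMIs in the controls and 10172 and 11022 UMIs in the CKO libraries, and the part of depth in this difference was not tested. In deep cells (4000 or more UMIs, no more than 5% mitochondrial) 0 members were called. With cells thinned to 1 depth before summing 2 were, and with exclusive gates 2. The number also changed without control 1 or control 2, fits that leave 1 control library. Shares of all genes called are not given for these alternatives.

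**Figure D4:**
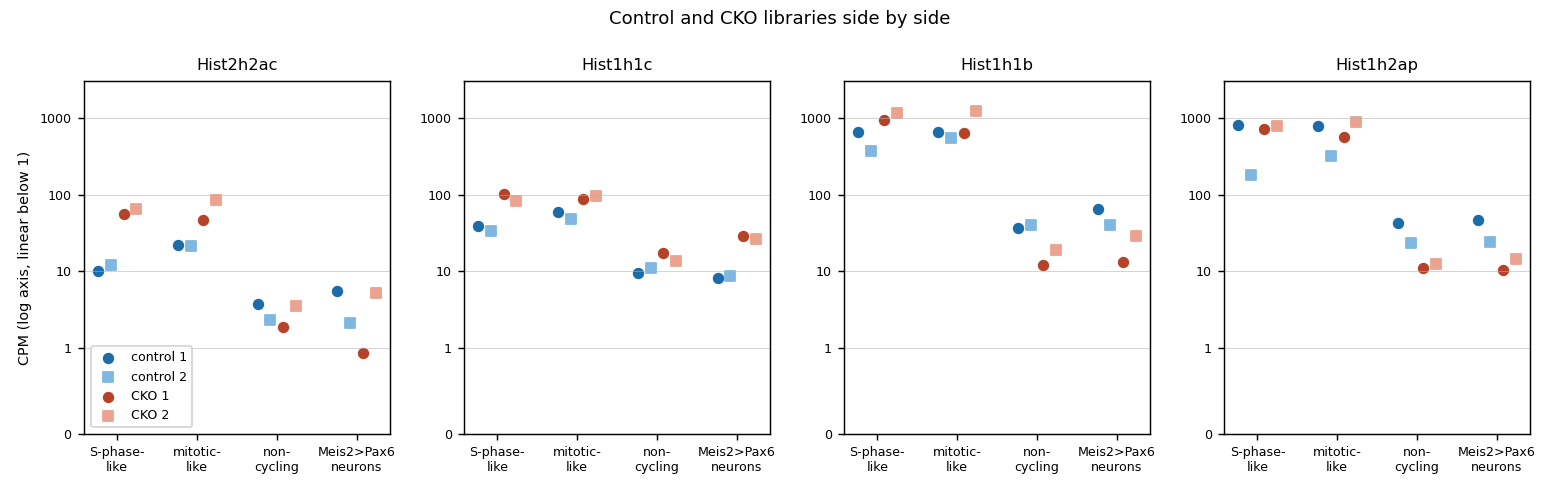
CPM (log axis, linear below 1) of Hist2h2ac, Hist1h1c, Hist1h1b and Hist1h2ap in 4 cell classes, with 1 point per library, controls in blue and CKO in red. In S-phase-like cells the red points of Hist2h2ac and Hist1h1c lie above the blue ones, and in non-cycling cells and neurons those of Hist1h1b and Hist1h2ap lie below.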

How the data were processed

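UMI counts per gene and cell were deposited as filtered matrices, made by the authors with Cell Ranger 5.0.0 on mm10, per the submitters' processing notes; the gene annotation is not given in the sources used here. Cells were kept at 500 or more genes, 1000 or more UMIs and at most 10% mitochondrial UMIs, and cells with over 2% haemoglobin UMIs (0 to 13 a library) were left out of all classes. Doublets were not removed in the main analysis; an alternative removed the cells with the highest simulated-doublet scores (Scrublet in scanpy 1.11.5, 0.8% per 1000 cells, 32 to 124 cells a library).

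Counts were summed per library and class and tested with edgeR 4.0.16 (TMM scaling, its filterByExpr for low counts, two-sided quasi-likelihood tests, Benjamini-Hochberg over all genes tested, threshold 0.05), with the library as a block between classes and no block between genotypes. The SE is the log2 fold change divided by the square root of F. DESeq2 1.42.0 was an alternative, and an adjusted p it left undefined was not counted. The code was tested on simulated data. Alternatives changed the normalization, filter, gates, thinning, depth and libraries used. CPM were computed here from the counts of each class. The 2 control and 2 CKO libraries carry numbers 1 and 2, which the labels do not tie to shared experiments.

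Genes described one by one were the 3 members of each family with the highest mean CPM in S-phase-like cells, the members that stayed on in neurons, and in each genotype comparison the called members or, with none called, the 3 with the lowest p; Hist1h2ag, Hist1h2bc, Hist4h4, Hist1h3b, Hist2h3c1 and Hist2h3c2 were named after their values were seen. The members and lists were chosen with earlier results of these data known. Gene coordinates and ends are from GENCODE M21 (61 of 61 gene IDs matched), and 55 promoters from RefSeq. Sharing of ends (60-base windows in the last 300 bases) and overlap were computed here: 18 members shared no window, 37 some and 6 all, 7 overlapped a gene on the same strand and 19 an antisense gene, and their counts are uncertain to that extent.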

Additional observations from a re-analysis of the deposited data

Results flagged for a closer look

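The effect of the CKO differed between neurons with Meis2 above Pax6 and S-phase-like cells for 5 of 44 members, by edgeR's test of the interaction with Benjamini-Hochberg adjustment, where 0.654% of 11780 genes were called, 0.475% upward and 0.178% downward. All 5 had a lower CKO effect in the neurons: Hist1h1b (log2 difference of the effects -2.61, adjusted p = 1.38e-06), Hist1h2ap (-2.58, adjusted p = 8.51e-05), Hist1h1a (-4.17, adjusted p = 0.00055), Hist1h2ae (-2.03, adjusted p = 0.00212) and Hist1h3c (-3.66, adjusted p = 0.0101). Hist1h1a and Hist1h3c rest on 28 and 19 UMIs in the neurons of all 4 libraries, with CKO 2 at 0 for Hist1h1a. Members low in the neurons could enter this fit through the S-phase-like class, so the 44 are not the whole set. In these neurons no cell held over 3 Hist1h1b UMIs, and the class's median depth was 2379.5 to 3720 UMIs, against 2911, 2124.5, 10172 and 11022 UMIs in S-phase-like cells of control 1, control 2, CKO 1 and CKO 2. The part of free RNA and of depth was not tested. Among deep cells (4000 or more UMIs, no more than 5% mitochondrial) none of the 5 was called. The calls also changed without control 1 or control 2, fits that leave 1 control library.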

How the results depend on the processing

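Values are counts of members called, of either direction. The number of members tested differs between settings, so the counts cannot be compared with each other as shares. Shares over all genes are not given in this section, so a count does not show whether members differ from other genes. Thinning cells before summing, which leaves 8 to 16 members testable, gave 16 for S-phase-like against non-cycling cells, 16 for mitotic-like against non-cycling cells, 1 for S-phase-like against mitotic-like cells, 8 for Meis2-over-Pax6 neurons against S-phase-like cells, 0 for Meis2-over-Pax6 neurons against Pax6-over-Meis2 neurons, 0 for CKO against control in S-phase-like cells, and 2 for the CKO effect in Meis2-over-Pax6 neurons against CKO effect in S-phase-like cells. Exclusive gates gave, for the same comparisons in order and without the neuron pair, 20, 25, 18, 12, 0 and 2. No low-count filter gave 22 for S-phase-like against mitotic-like cells, 53 and 9 for the neuron comparisons, and 15, 10, 2, 2 and 3 for CKO against control in all kept cells, S-phase-like cells, mitotic-like cells, non-cycling cells and Meis2-over-Pax6 neurons. S-phase-like against mitotic-like cells gave 20 with another thinning seed, 3 with DESeq2, 28 with gates of 3 UMIs and 4 with gates of 6. DESeq2 gave 5 for CKO against control in all kept cells and 5 in S-phase-like cells. Among deep cells (4000 or more UMIs, no more than 5% mitochondrial) 0 were called for CKO against control in S-phase-like cells and 0 for the CKO effect in Meis2-over-Pax6 neurons against CKO effect in S-phase-like cells, and the summed clustered histone level in Meis2-over-Pax6 neurons was 1008 CPM against 818.

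Leaving out each library in turn gave 48 to 55 and 48 to 56 for the cycling classes against non-cycling cells, 2 to 12 between them, 28 to 39 for the neurons against S-phase-like cells, and 2 to 6 between neurons. For CKO against control it gave 0 to 19 in all kept cells, 1 to 8 in S-phase-like cells (8 without control 1, 2 without CKO 1 or CKO 2), 0 to 1 in mitotic-like cells (1 without CKO 1), 0 to 0 in non-cycling cells, 0 to 4 in neurons, and 3 to 8 for the CKO effect between classes. The cause of these shifts was not tested. A single direction turned: the value for "Hist2h2ac: CKO against control in mitotic-like cells" was -0.0013 (log2) with exclusive gates. Of the other values of single genes, 855 kept their side of the threshold, 79 lost and 33 gained a call.

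Same-numbered libraries deviated in opposite directions (correlation -0.28 over 12973 genes), so the numbers were not taken as pairs. The replicate block gave 5 for CKO against control in S-phase-like cells and 3 in Meis2-over-Pax6 neurons. Between classes, with the library not kept as a block, the S-phase-like against mitotic-like count was 1 and that between neurons 0. The crossed pairing, chosen after seeing the data, gave 11, 11, 1 and 3 in all kept, S-phase-like, mitotic-like and non-cycling cells.

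With 2 libraries a group and 1 pool each, the genotype tests see only large differences, and depth differs with genotype. Members with few UMIs in a class, most of all in neurons, cannot be ordered. Score classes mix phases, and the part of free RNA in low levels was not tested. Near-identical copies can trade counts.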
